A study of Mus musculus with 12 samples.

Results

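A set of 10 genes, 8 of the acute phase and 2 metallothioneins, was followed across tissues of Sirt6 knockout mice: Saa2, Saa3, Saa4, Apcs, Crp, Lbp, Hp and Serpina3n, and Mt1 and Mt2. They were chosen by name, with earlier results of these data known, so the counts of members below describe the set and do not test it. Their probes were found by the gene symbol of the array's annotation and averaged per array. The 10 genes were read by 11 probes, of 38784 probes and 14654 named genes on the arrays; Hp had 2 probes and the others 1 each. Sirt6, the gene that was knocked out, encodes a chromatin-bound NAD-dependent deacylase of mouse and human cells. Each of the 12 arrays compared knockout RNA, labelled with Cy5, with wild type RNA of the same tissue and age, labelled with Cy3. The 6 groups held 2 arrays each: Sirt6-/- liver and Sirt6-/- spleen from mice aged 21 days, and Sirt6-/- thymus, spleen, skin and liver from mice aged 29 days. Tissue of 3 wild type littermates was pooled for the comparison at the younger age, and the labels do not say whose RNA served at the older age. Strain, sex and the knockout allele are not in the labels used here. The knockout is a null of the whole animal, so the tissues of a mouse share its condition.

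In mammals the acute phase response is the remodelling of blood proteins that follows infection or injury. Macrophages release interleukin 6, interleukin 1 and tumour necrosis factor; in hepatocytes these act through the transcription factors STAT3, NF-kB and the C/EBP family and raise the output of the positive acute phase proteins, while albumin and transthyretin, negative acute phase proteins, are made less. Metallothioneins are small cysteine-rich proteins that bind zinc and copper. Their genes are switched on by zinc through the metal-sensing factor MTF1, and also by glucocorticoids, interleukin 6 and oxidative stress, in liver and in most other tissues.

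All values below are log2 ratios with the median of each array set to 0, and a positive value means more RNA in the knockout. Bulk ratios cannot tell more cells of a type from more RNA per cell. All arrays had the dyes the same way round, so a probe's own dye preference was not removed. Sirt6 was read by 2 probes, with values from -1.66 to 0.18 for the first and -2.92 to 0.77 for the second; whether either lies in the deleted part is not known, so they do not check the labels. The 21-day arrays were wider (SD of the deposited values 0.72 to 1.14) than the 29-day arrays (0.31 to 0.66), and replicate 6 of 21-day spleen lacked 10155 probes. The spleen arrays stood apart. Across features, the arrays of 29-day spleen correlated at -0.25 and those of 21-day spleen at 0.12, against 0.18 in 29-day liver, 0.34 in 21-day liver, 0.35 in skin and 0.45 in thymus. The median of 119 ribosomal and respiratory chain genes was -1.06 on replicate 2 of 29-day spleen and -0.78 on replicate 6 of 21-day spleen, and between -0.11 and 0.52 on the other arrays. The table used here holds only ratios, so whether a tissue held the RNA of its defining markers at all could not be read.

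The promoters of 4 members are shown because the results turn on these genes and because they carry, or lack, the short patterns that the factors named above are known to bind. The sequences are from RefSeq (mouse build GRCm38.p6), 8 of the 10 members matched, and each is the 250 bases before a start in the RefSeq promoter table, on the strand of the gene. In the metallothionein promoters the capitals mark the core of the metal response element, searched as TGCACNC or TGCGCNC on both strands. The Mt1 window is chr8:94178839-94179088 on the plus strand and lies partly inside the annotated gene, which has an earlier start at 94178883. The Mt2 window is chr8:94172368-94172617 on the plus strand.
Mt1: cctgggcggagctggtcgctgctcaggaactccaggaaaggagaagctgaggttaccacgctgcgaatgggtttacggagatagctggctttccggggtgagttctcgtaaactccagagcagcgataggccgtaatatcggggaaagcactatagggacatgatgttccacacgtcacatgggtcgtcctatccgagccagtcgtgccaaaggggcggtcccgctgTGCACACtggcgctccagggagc
Mt2: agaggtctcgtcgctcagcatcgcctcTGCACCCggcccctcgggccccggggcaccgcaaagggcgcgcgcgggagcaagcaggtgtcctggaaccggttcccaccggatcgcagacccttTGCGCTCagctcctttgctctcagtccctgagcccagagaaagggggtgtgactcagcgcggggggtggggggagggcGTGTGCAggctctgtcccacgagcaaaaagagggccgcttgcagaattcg
The Mt1 window held 1 such core, whose first base is 23 bases before the start, and the Mt2 window held 3, beginning 223, 128 and 50 bases before it. Only these 250 bases were searched, and bases outside the windows may hold further cores. The counts therefore depend on the start used and do not compare the full promoters of the genes. Of 32851 RefSeq windows of this length, 21.41% held at least 1 core, 5.175% at least 2 and 1.263% at least 3. In the serum amyloid promoters the capitals mark the NF-kB pattern GGGNNNNNCC and the C/EBP pattern TTGCNNAA, on both strands. The Saa2 window is chr7:46751583-46751832 on the plus strand, and the Saa3 window is chr7:46715677-46715926 on the minus strand, inside the annotated gene span from 46711998 to 46719615.
Saa2: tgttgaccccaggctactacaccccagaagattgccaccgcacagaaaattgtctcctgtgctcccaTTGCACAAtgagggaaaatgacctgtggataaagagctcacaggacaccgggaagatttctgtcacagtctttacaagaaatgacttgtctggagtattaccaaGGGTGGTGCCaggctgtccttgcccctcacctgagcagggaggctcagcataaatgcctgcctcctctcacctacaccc
Saa3: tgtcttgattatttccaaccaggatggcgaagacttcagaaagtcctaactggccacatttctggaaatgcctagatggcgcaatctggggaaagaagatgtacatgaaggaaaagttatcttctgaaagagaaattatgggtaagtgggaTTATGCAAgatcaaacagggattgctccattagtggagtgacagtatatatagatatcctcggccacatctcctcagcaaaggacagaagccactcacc
Saa2 held 1 NF-kB pattern, beginning 79 bases before the start, and 1 C/EBP pattern, beginning 183 bases before it; Saa3 held 1 C/EBP pattern and no NF-kB pattern. These patterns are common: 45.8% of the RefSeq windows held the NF-kB pattern and 9.56% the C/EBP pattern. The STAT3 pattern, searched as TTCNNNGAA or TTCNNGGAA, was in none of these 4 windows and in 7.02% of all. A match is a description of the letters and no evidence of binding.

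In 29-day liver nearly all members stood above the wild type on both arrays, but far higher on replicate 1. On that array 9 of the 10 lay between 1.96 and 3.48 and Crp at 0.78, while on replicate 2 the metallothioneins lay at 1.95 and 1.93, Saa2 at 1.06, Hp at 0.74 and the other 6 between -0.17 and 0.38. None passed limma's test at an adjusted p under 0.05 (0 of 10, against 0.104% of all 30812 features tested). At an unadjusted p under 0.05, 8 of 10 were higher and 0 lower, against 2.16% of all features in either direction. The set was chosen with earlier results of these data known, so this count is a description. The members' median was 1.5 and that of all features 0.009.

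**Figure D1:**
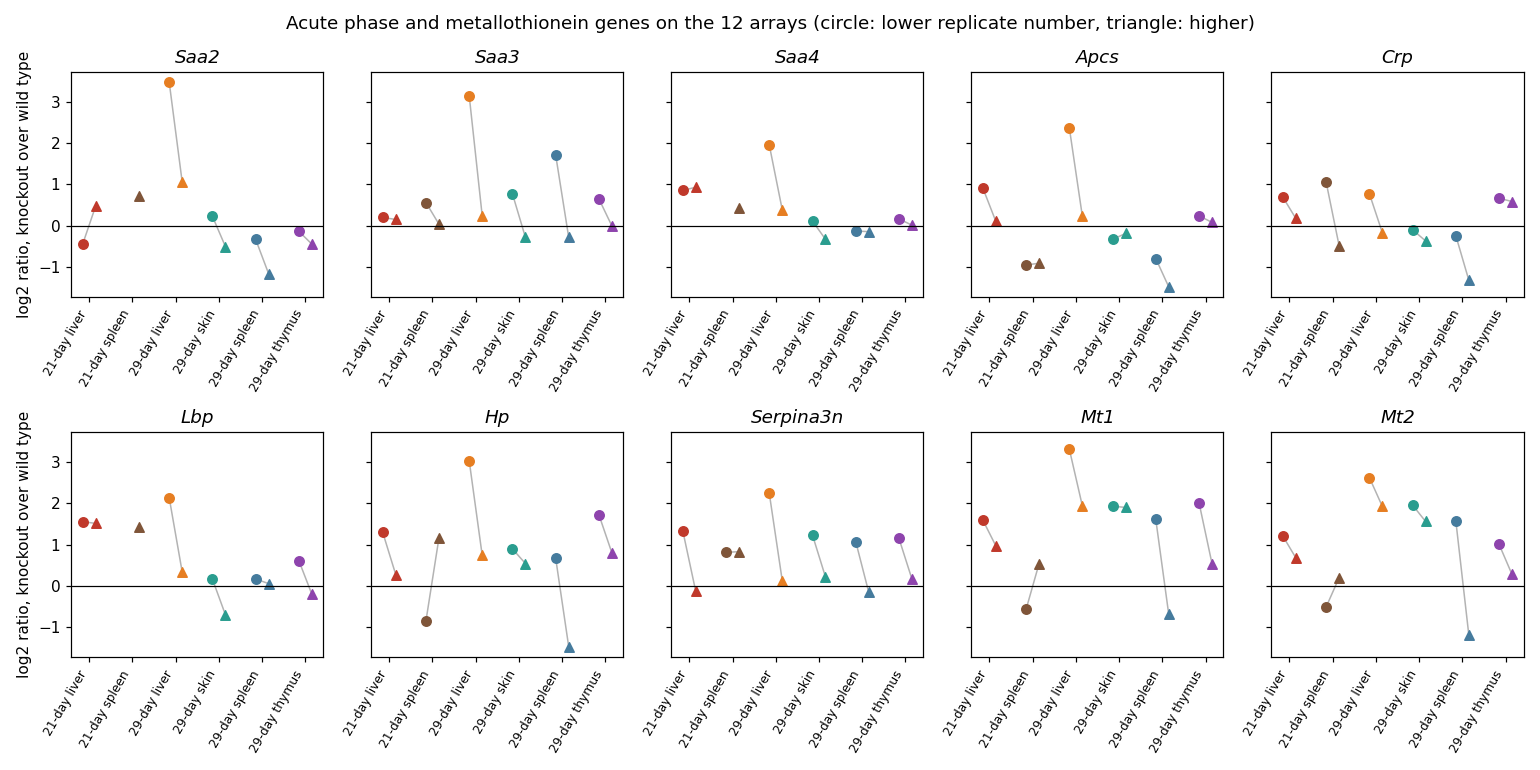
Log2 ratio of knockout over wild type (vertical axis) of the 10 members in the 6 groups (horizontal axis), 1 point per array, with a line joining the arrays of a group. Replicate 1 of 29-day liver is the highest point for all members except Crp, whose highest is replicate 6 of 21-day spleen, while Mt1 and Mt2 are also above 1.5 on both skin arrays.

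The serum amyloid A proteins Saa2 and Saa3 are carried on high density lipoprotein, and Saa2 and its neighbour Saa1 are the main inducible forms of mouse liver. Saa3 is also made outside the liver, by macrophages and fat. The serum amyloid genes lie together on chromosome 7. Saa2 stood at 3.48 and 1.06 in 29-day liver, the first being rank 5 from the top of 30910 features on its array and the second rank 82 of 30846. In the other groups it lay between -1.17 and 0.72: -0.45 and 0.48 in 21-day liver, 0.23 and -0.51 in skin, -0.33 and -1.17 in 29-day spleen and -0.14 and -0.45 in thymus. In 21-day spleen only replicate 11 had a value, 0.72, and Saa2 was not tested there. Its limma mean in 29-day liver was 2.27 (SE 0.51, n = 2 arrays), a 4.83-fold ratio, with an adjusted p of 0.427. Both liver arrays at 29 days were above every other Saa2 value. The probe named Saa1 gave 2.47 and 0.15 in 29-day liver; Saa1 and Saa2 are nearly identical, and how far their probes share RNA is not known.

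Saa3 followed Saa2 on replicate 1 of 29-day liver but not on replicate 2. It stood at 3.14 and 0.24 there (mean 1.69, SE 0.63, adjusted p = 1), at 0.20 and 0.15 in 21-day liver, and at 0.56 and 0.04 in 21-day spleen. In 29-day spleen it was 1.71 on replicate 1 and -0.28 on replicate 2. In skin it was 0.77 and -0.29, and in thymus 0.65 and -0.01. In each of the 4 tissues at 29 days replicate 1 was the higher one, and the arrays of skin, spleen and thymus lay on both sides of 0.

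Saa4 is the constitutive serum amyloid, known for a weak response to inflammation. In 21-day liver its arrays were close together, at 0.86 and 0.93 (mean 0.89, SE 0.32, adjusted p = 0.174), and stood at 1.96 and 0.38 in 29-day liver (mean 1.17, SE 0.32, adjusted p = 0.89). All 4 liver values were above 0. In skin it was 0.11 and -0.33, in 29-day spleen -0.13 and -0.14, and in thymus 0.16 and 0.01. The only 21-day spleen value was 0.44, on replicate 11.

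The short pentraxins Apcs and Crp are ring-shaped proteins that bind microbes and cell debris. In the mouse Apcs, serum amyloid P, is the inducible form, and Crp, the main acute phase protein of humans, responds little. Apcs stood at 2.38 and 0.24 in 29-day liver and at 0.91 and 0.11 in 21-day liver. In spleen it was below 0 on every array, -0.95 and -0.91 at 21 days (mean -0.93, SE 0.41, adjusted p = 0.181) and -0.80 and -1.49 at 29 days (mean -1.14, SE 0.41, adjusted p = 1). The liver and spleen values did not overlap. In skin it was -0.33 and -0.19, and in thymus 0.24 and 0.08.

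Hepatocyte markers were low on the same spleen arrays. None of the 9 measured hepatocyte genes was above 0 on any of the 4 spleen arrays, and their medians were -0.62 and -0.96 at 21 days and -0.81 and -1.49 at 29 days. Albumin (Alb) was -2.65 and -1.23 at 21 days and fell by 1.94 on average (SE 0.36, limma adjusted p = 0.0277). Exocrine pancreas genes differed between the ages. Their medians were -2.28 and -1.80 in 21-day spleen and 0.42 and 0.95 in 29-day spleen. In 21-day spleen 3 of 4 tested fell (lowest limma adjusted p = 0.00363), against 4.13% of all features passing there. With the 21-day arrays fitted on their own, 0 of 21531 features passed in 21-day spleen. The part of either list in the spleen values of Apcs, Saa2 and Crp was not tested.

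Crp had the smallest range of the liver values: 0.69 and 0.17 at 21 days, and 0.78 and -0.17 at 29 days (mean 0.30, SE 0.38). Its highest value, 1.06, was on replicate 6 of 21-day spleen, where replicate 11 gave -0.48. In thymus it was 0.66 and 0.58, in skin -0.10 and -0.37, and in 29-day spleen -0.24 and -1.32. The groups with Crp above 0 on both arrays were 21-day liver and thymus.

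Lbp binds bacterial lipopolysaccharide and hands it to CD14. It was above 1.5 on both arrays of the younger liver. Its values were 1.56 and 1.52 in 21-day liver. In 29-day liver they were 2.14 and 0.34. The 21-day mean of 1.54 (SE 0.40, 2.9-fold) had the lowest adjusted p of the members in that group, 0.0848, and an unadjusted p of 0.00425. The 29-day mean was 1.24 (SE 0.40, adjusted p = 1). In 21-day spleen its only value was 1.42, on replicate 11. The arrays of skin (0.16 and -0.70) and of thymus (0.61 and -0.20) lay on both sides of 0, and those of 29-day spleen stood at 0.17 and 0.06.

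Hp, haptoglobin, captures free haemoglobin in blood. It stood at 3.03 and 0.74 in 29-day liver (mean 1.89, SE 0.66, adjusted p = 1), at 0.90 and 0.54 in skin, and at 1.72 and 0.80 in thymus (mean 1.26, SE 0.66, adjusted p = 0.908). The arrays of these 3 groups were all above 0. The spleen arrays disagreed in sign, with -0.84 and 1.16 at 21 days and 0.67 and -1.47 at 29 days. In 21-day liver Hp was 1.30 and 0.28. There its probes disagreed on replicate 11, where they gave -0.52 and 1.07; on the other 11 arrays they had the same sign.

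Serpina3n is an inhibitor of serine proteases that is made in liver and in many other tissues under inflammation and glucocorticoids. It stood at 2.25 and 0.13 in 29-day liver, 1.34 and -0.13 in 21-day liver, and 1.23 and 0.22 in skin. In thymus it was 1.15 and 0.16, and in 29-day spleen 1.07 and -0.15. At 21 days the spleen arrays gave 0.81 and 0.83. It was thus above 1 on replicate 1 of all 4 tissues at 29 days and below 0.25 on replicate 2 of each.

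The gap between the numbered arrays ran through the members. Replicate 1 was higher than replicate 2 for 10 of 10 members in 29-day liver, with a median gap of 1.96, for 10 of 10 in spleen (1.15) and in thymus (0.70), and for 9 of 10 in skin (0.42), Apcs being the exception. Over all features replicate 1 was the higher one for 51.3% in liver, 49.3% in spleen, 44.3% in thymus and 52% in skin. In 29-day spleen the gap was not limited to the members. There the ribosomal and respiratory chain medians were 0.32 on replicate 1 and -1.06 on replicate 2, and the red cell medians 0.81 and -2.19. The ribosomal and respiratory chain medians were 0.07 and -0.10 in 29-day liver, 0.52 and 0.28 in skin, and -0.11 and 0.06 in thymus. The labels do not say whether arrays with the same number came from the same mouse.

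Mt1 and Mt2 were high on both arrays of 29-day liver and on both arrays of skin. Mt1 stood at 3.32 and 1.95 in 29-day liver, ranks 9 and 15 from the top of their arrays, and Mt2 at 2.63 and 1.93, ranks 24 and 17. In skin Mt1 was 1.93 and 1.90 and Mt2 1.96 and 1.56, and each was among the 38 highest features on both arrays. In thymus Mt1 was 2.02 and 0.54 and Mt2 1.01 and 0.28. In 21-day liver Mt1 was 1.60 and 0.97 and Mt2 1.21 and 0.68. All arrays of these 4 groups were above 0 for both genes.

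Spleen was the exception for both metallothioneins. Mt1 was 1.61 on replicate 1 of 29-day spleen and -0.69 on replicate 2, and Mt2 was 1.58 and -1.19. At 21 days Mt1 was -0.57 and 0.54 and Mt2 -0.51 and 0.20. The low values fell on the arrays where the ribosomal and respiratory chain genes were also low (-1.06 and -0.78): against that median, Mt1 was higher on both of these arrays, and Mt2 was higher on replicate 6 of 21-day spleen and lower on replicate 2 of 29-day spleen.

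**Figure D2:**
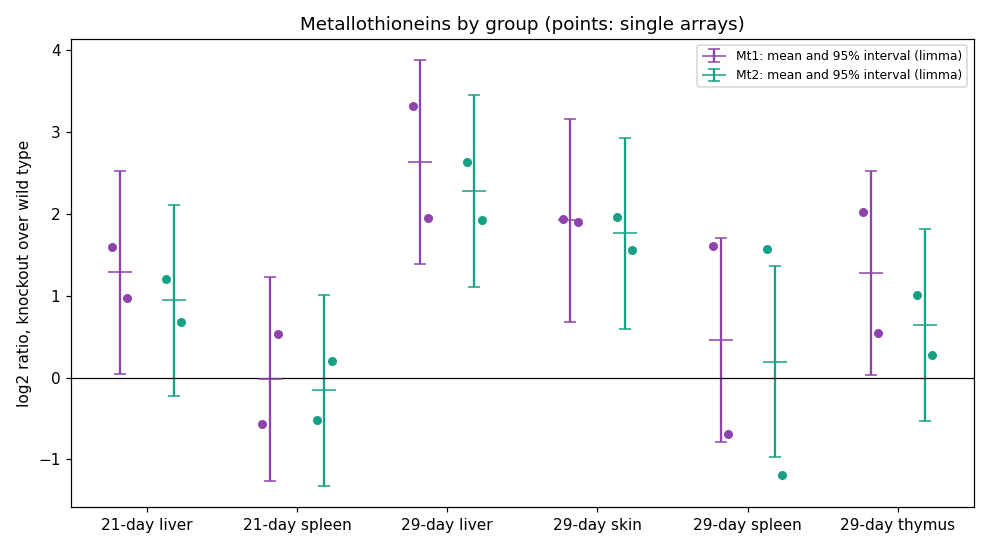
Log2 ratio of knockout over wild type (vertical axis) of Mt1 and Mt2 in the 6 groups (horizontal axis). Points are single arrays, and bars are limma means with 95% intervals from the spread shared by all groups; the Mt1 means run from -0.02 in 21-day spleen to 2.63 in 29-day liver.

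In 29-day liver the Mt1 mean was 2.63 (SE 0.56, 95% interval 1.39 to 3.88), a 6.21-fold ratio, with an unadjusted p of 0.000886 and an adjusted p of 0.278. The Mt2 mean was 2.28 (SE 0.52, 95% interval 1.11 to 3.45), 4.85-fold, with an adjusted p of 0.39. In skin the means were 1.92 (SE 0.56, 3.78-fold, adjusted p = 0.699) and 1.76 (SE 0.52, 3.39-fold, adjusted p = 0.755). Neither gene passed the test in any single group. The spread behind these tests is shared with the spleen arrays. Without the 4 spleen arrays, a setting chosen after seeing the data, the adjusted p in 29-day liver was 0.0192 for Mt2 and 0.0737 for Mt1, and in 21-day liver 0.0486 and 0.0732. That setting called 0.237% of all features in 29-day liver and 12.4% in 21-day liver, so the 1 of 10 members it called in the younger liver is near the share of all features. Leaving out either single array of 29-day spleen also brought Mt2 in 29-day liver, and no other member in any single group, under the threshold (1 of 10 members each time, against 0.0811% of all features). Over all 23 alternatives the adjusted p in 29-day liver ran from 0.00311 to 1 for Mt2 and from 0.00387 to 1 for Mt1, and over the 23 alternatives in 21-day liver from 0.0486 to 0.813 and from 0.0732 to 0.73.

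Over all 8 arrays at 29 days, with the tissues weighted equally, the Mt1 mean was 1.57 (SE 0.28, 2.97-fold, adjusted p = 0.141) and the Mt2 mean 1.22 (SE 0.26, 2.33-fold, adjusted p = 0.241); both were above 0 on 7 of the 8 arrays. None of the 10 members passed (0.049% of 30641 features did). At an unadjusted p under 0.05, 5 of 10 were higher, Mt1, Mt2, Serpina3n, Hp and Saa3, and 0 lower, against 8.33% of all features. The members' median was 0.53 and that of all features 0.005. Without replicate 2 of 29-day spleen, 1 member, Mt2, was called (0.0228% of all features).

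Mt1 and Mt2 lie next to each other on chromosome 8, and their values ran together. Over the 12 arrays Pearson's r was 0.96 and Spearman's rho 0.88, and r was 0.92 without replicate 2 of 29-day spleen and replicate 6 of 21-day spleen, the arrays farthest from the median. These are descriptions without a test: the arrays share dyes and, within a tissue, possibly wild type RNA. Mt1 was the higher one on 10 of 12 arrays, by 0.32 on average. The other family members on the array were Mt3, the form of brain, and Mt4, the form of squamous epithelium. Mt3 stayed between -0.25 and 0.70. Mt4 stood at 2.49 and 1.32 in 29-day liver (mean 1.91, SE 0.49, adjusted p = 0.727), 1.21 and -1.02 in 29-day spleen and 0.77 and 0.33 in skin. Whether RNA of Mt1 and Mt2 reaches the Mt4 probe was not tested.

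The other single groups gave no called member either. In 21-day liver 0 of 10 passed (2.54% of all features did), and 3, Lbp, Saa4 and Mt1, were higher at an unadjusted p under 0.05, against 20% of all features. The members' median there was 0.69. In 21-day spleen 0 of the 7 tested passed (4.13% of features), and 1, Apcs, was lower at an unadjusted p under 0.05, against 27.3%. In skin 0 of 10 passed (0.0389%), and 2, Mt1 and Mt2, were higher unadjusted, against 3.27%. In 29-day spleen 0 of 10 passed (0% of features), and Apcs was lower unadjusted, against 3.3%. In thymus 0 of 10 passed (0.013%), and Mt1 was higher unadjusted (mean 1.28, SE 0.56), against 5.21%.

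**Figure D3:**
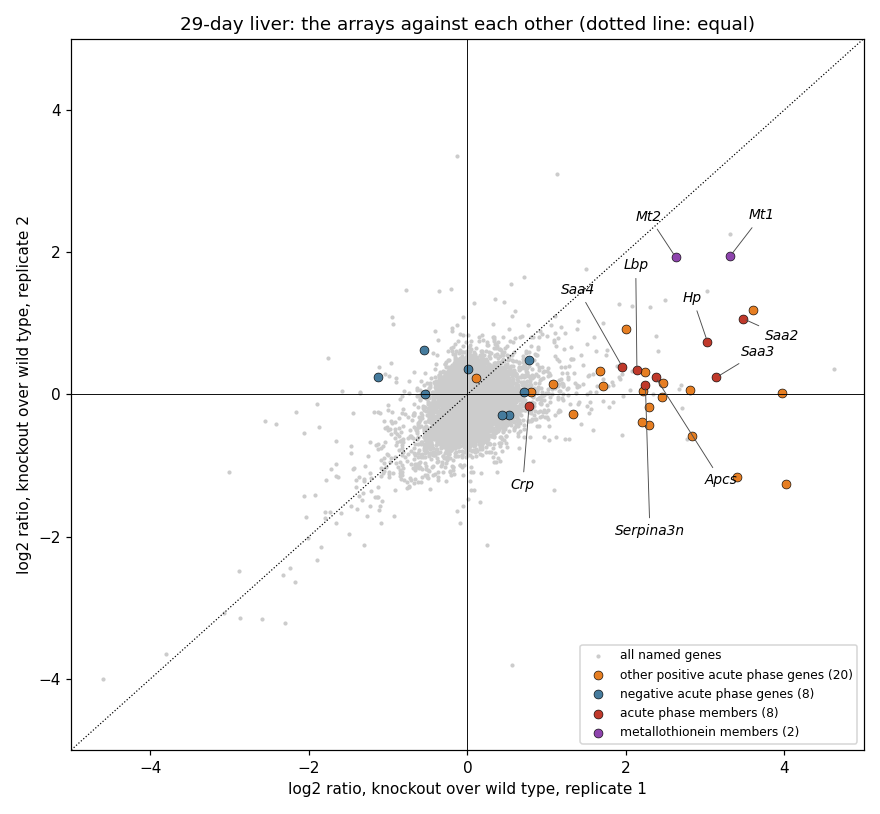
Log2 ratio of knockout over wild type on replicate 1 (horizontal axis) and replicate 2 (vertical axis) of 29-day liver, 1 point per named gene, with acute phase genes and metallothioneins coloured. Mt1 and Mt2 are the highest members on replicate 2, while 5 of the 8 acute phase members lie beyond 1.9 on replicate 1 and below 0.4 on replicate 2.

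Liver was compared with the other tissues of the same age to ask where the members' ratios differ. Saa2 had the largest difference among the members, 2.67 (SE 0.59, 95% interval 1.33 to 4.0) between 29-day liver and the mean of skin, spleen and thymus, with an adjusted p of 0.665. Apcs followed at 1.72 (SE 0.48), and both metallothioneins at 1.41. None of the 10 passed (0.0359% of 30641 features did). At an unadjusted p under 0.05, 5 were higher in liver, Saa2, Apcs, Saa4, Lbp and Mt2, and 0 lower, against 1.89% of all features. The liver arrays themselves differed by 2.42 for Saa2.

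Between the ages no member passed. In liver the 29-day ratio was above the 21-day ratio by 2.26 for Saa2 (SE 0.72, 95% interval 0.62 to 3.89, adjusted p = 0.431), by 1.35 for Mt1 and by 1.33 for Mt2, and below it by a difference of -0.30 for Lbp. That is 0 of 10 passing (0.0138% of features) and 1, Saa2, higher at an unadjusted p under 0.05, against 8.22%. In spleen 0 of the 7 tested passed (0.0866%), and 0 had an unadjusted p under 0.05, against 11.1%; among these 7 Crp had the largest difference, -1.07 (SE 0.54). The array titles differ in form between the ages, and the wild type RNA was of the same age as the knockout. Whether the ages were run as separate sets of arrays is not in the labels. The effects of age and of any array set cannot be told apart.

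Other positive acute phase genes repeated the gap between the liver arrays. Of 28 listed, 20 were measured; on replicate 1 of 29-day liver all 20 were above 0, with a median of 2.27, and on replicate 2, 12 were, with a median of 0.04. None passed in 29-day liver, and 10 of 20 were higher at an unadjusted p under 0.05, against 2.16% of all features in either direction. Lcn2, an iron-siderophore binder of neutrophils and hepatocytes, was 3.60 and 1.19 (mean 2.40, SE 0.66), and A2m, a broad protease inhibitor, was 3.97 and 0.03. The acid glycoproteins Orm1 and Orm2 changed sides, with 3.40 and 4.03 on replicate 1 and -1.16 and -1.25 on replicate 2. They were also below 0 on both arrays of 21-day liver, from -1.14 to -0.66.

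One gene of that list passed. Il1rn, the secreted antagonist of interleukin 1, rose in 21-day liver, with values of 1.91 and 1.74 (mean 1.83, SE 0.24, limma adjusted p = 0.00699). That is 1 of 17 tested, against 2.54% of all features. The spread behind this test is shared with the narrower 29-day arrays. With the 21-day arrays fitted on their own, 0 of 21531 features passed in 21-day liver. In 29-day liver Il1rn was 2.01 and 0.93 (mean 1.47, SE 0.24, adjusted p = 0.0813). It was thus above 0.9 on all 4 liver arrays and between 0.09 and 0.53 on the other 8.

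The negative acute phase genes had medians near 0 in 29-day liver, 0.22 and 0.14, and 0 of 8 passed. Alb stood at -0.54 and 0.63, transthyretin (Ttr) at -0.53 and 0.01, and Serpina6, the carrier of corticosterone, at -1.13 and 0.24. These 3 were thus below 0 on replicate 1 only. The other 5 of the 8 were above 0 on replicate 1. On replicate 2, 6 of the 8 were above 0, and Apom and F12 were below 0. Apoa1, of high density lipoprotein, was above 0 on all 4 liver arrays, at 1.51 and 0.88 in the younger mice and 0.77 and 0.48 in the older. In 21-day spleen 2 of the 6 tested fell, against 4.13% of all features. These were Alb and Apoa1, the latter by 1.54 (SE 0.35, limma adjusted p = 0.0434). Both also belong to the hepatocyte markers given above. With the 21-day arrays fitted on their own, 0 features passed in 21-day spleen.

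Among the inducing cytokines 0 of 8 passed in either liver group. Il6 was 1.71 on replicate 1 of 29-day liver and -0.09 on replicate 2, and between -0.16 and 0.40 on all other arrays. Il1b was 1.24 and 1.29 in 21-day liver (mean 1.26, SE 0.42, adjusted p = 0.146), and at 29 days it was 0.69 and -0.10. Of the 7 receptors 0 passed in liver; Lifr, the receptor of leukaemia inhibitory factor, was below 0 on all 4 liver arrays, at -0.59 and -0.68 at 21 days (mean -0.63, SE 0.17, adjusted p = 0.0814) and -0.85 and -1.07 at 29 days (mean -0.96, SE 0.17, adjusted p = 0.108). The interleukin 1 receptor Il1r1 fell in 21-day spleen by 1.06 (SE 0.19, limma adjusted p = 0.0256), 1 of 6 tested, against 4.13% of all features. With the 21-day arrays fitted on their own, 0 features passed there. Socs3, which STAT3 induces and which shuts off interleukin 6 signalling, was high on replicate 1 alone in liver (1.84 and -0.11) and spleen (1.24 and -0.30) of 29-day mice (0 of 6 feedback genes passed). Stat3 itself was 0.86 and -0.23 in 29-day liver, and 0 of 9 transcription factors passed. Of 10 receptors and partners of the members 0 passed in either liver group.

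Macrophage and neutrophil markers were higher on the liver array where the members were higher, and lymphocyte markers lay near 0 on both. All 9 measured macrophage and Kupffer cell genes were above 0 on replicate 1 of 29-day liver, from 0.75 to 2.71 with a median of 1.35, and 8 of 9 on replicate 2, from -0.20 to 0.39 with a median of 0.18. All 10 measured neutrophil genes were above 0 on replicate 1, from 0.27 to 2.77 with a median of 0.61. S100a8 and S100a9 were highest on replicate 1, at 2.69 and 2.77, and stood at 0.13 and -0.63 on replicate 2. On replicate 2, 4 of 10 neutrophil genes were above 0, with a median of -0.08. The hepatocyte genes had medians of 0.36 and 0.11, the B cell genes -0.09 and 0.05, and the T cell genes -0.05 and -0.06. In 21-day liver the macrophage medians were 0.56 and 0.44, and 1 of 9 passed (limma adjusted p = 0.0376), against 2.54% of all features. With the 21-day arrays fitted on their own, 0 features passed in 21-day liver. The neutrophil medians there were 0.09 and 0.20. In 29-day spleen the neutrophil medians were 0.83 and -1.31 and the macrophage medians 0.87 and -0.34, the same way round as Saa3, Hp and the metallothioneins. The red cell genes lay further apart than either, with medians of 0.81 and -2.19, all 5 above 0 on replicate 1 and 0 of 5 on replicate 2. The part of these cell types in the members' values was not tested. In skin, where both metallothioneins were high on both arrays, the macrophage medians were 0.11 and 0.07, the neutrophil medians 0.23 and 0.11, and the adipocyte medians -0.73 and -0.53. In thymus the adipocyte medians were 1.16 and -0.58, so replicate 1 differed there too, and the part of that in the thymus values was not tested.

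**Figure D4:**
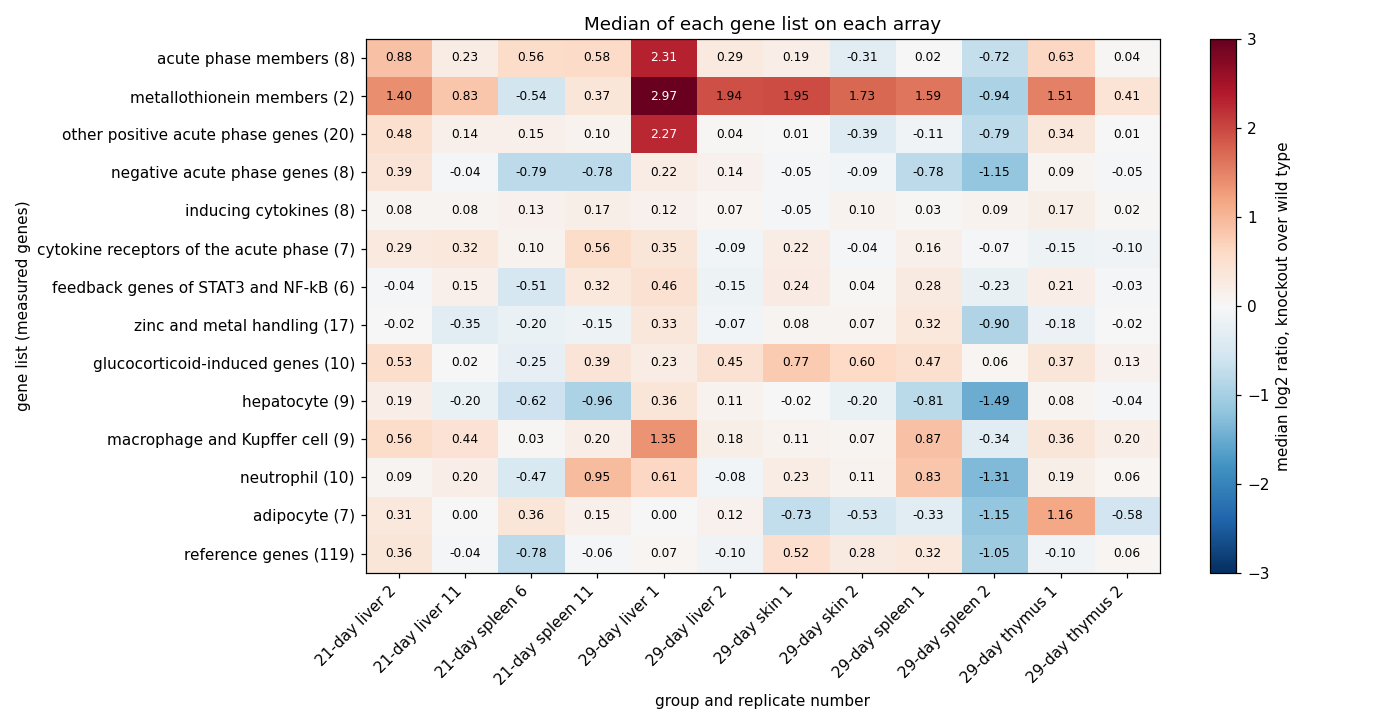
Median log2 ratio of knockout over wild type (colour and printed value) of each gene list (vertical axis, measured genes in brackets) on each array (horizontal axis). Replicate 1 of 29-day liver is high for the acute phase and macrophage lists, and the metallothioneins are above 0.4 on all arrays except 3 of the 4 spleen arrays.

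The other measured genes of zinc and iron handling had medians nearer 0. Of 17 in 29-day liver, Mt3 and Mt4 included, 0 passed, and the medians were 0.33 and -0.07. At an unadjusted p under 0.05, 1 was higher (Mt4) and 2 were lower, against 2.16% of all features in either direction. The exporter of iron, Slc40a1, was below 0 on all 4 liver arrays, at -1.07 and -0.76 at 21 days and -0.71 and -1.21 at 29 days (mean -0.96, SE 0.31, adjusted p = 1). The receptor of transferrin, Tfrc, was 1.72 and 1.01 in 29-day liver. In skin 0 of 17 passed either way, with medians of 0.08 and 0.07.

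Genes induced by glucocorticoids were above the wild type in skin on both arrays, with medians of 0.77 and 0.60. Of 10 tested there 0 passed and 5 were higher at an unadjusted p under 0.05, against 3.27% of all features. The ribosomal and respiratory chain genes were also above 0 on these arrays, with medians of 0.52 and 0.28, and 20 of 119 were higher unadjusted. Ddit4, an inhibitor of mTORC1 signalling, was 1.98 and 1.36 (mean 1.67, SE 0.36, adjusted p = 0.352), and the immunophilin Fkbp5, which binds the glucocorticoid receptor complex, was 1.65 and 1.43 (mean 1.54, SE 0.27, adjusted p = 0.223). In 29-day liver the list's medians were 0.23 and 0.45 and in 21-day liver 0.53 and 0.02. They were 0.47 and 0.06 in 29-day spleen, 0.37 and 0.13 in thymus, and -0.25 and 0.39 in 21-day spleen. Over the mean of the 29-day tissues 0 of 10 passed. At an unadjusted p under 0.05, 6 were higher in that mean, against 8.33% of all features, so the higher values were not limited to skin. Fasting genes gave 2 calls among 14 in 21-day liver, against 2.54% of all features. Cyp4a14 rose there by 1.72 (SE 0.29, limma adjusted p = 0.024). Cpt1a, the gate of fatty acid import into mitochondria, rose by 0.95 (SE 0.18, limma adjusted p = 0.0273). With the 21-day arrays fitted on their own, 0 features passed in 21-day liver. Igfbp1 was 3.02 and 1.45 in 29-day liver (mean 2.24, SE 0.33, adjusted p = 0.0773), high on both arrays like the metallothioneins.

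Among 11214 named genes with a value on every array, those most like the mean of the 8 acute phase members across the 12 arrays were Fga (r = 0.95), a chain of fibrinogen, Cd52 (0.94), Ambp (0.92), Itih3 (0.92) and Lyz1 (0.91). Those most like the mean of Mt1 and Mt2, among 11217, were Timm17a (0.95), Ublcp1 (0.92), Lgals3 (0.91), Trappc2l (0.90) and Uap1 (0.90). Fga, Ambp and Itih3 are made by hepatocytes and Cd52 by blood cells. None of the 5 nearest to the metallothioneins is another gene of the metal list. However, Mt4, Tfrc, Hmox1, Slc40a1 and Slc39a10 of that list lacked a value on an array, so they were not compared and could not appear. A single array far from the rest, such as replicate 1 of 29-day liver at 2.31 for the acute phase median, weighs heavily in such an r.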

How the data were processed

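Two-colour arrays measured RNA of Sirt6-/- tissue (Cy5, TRIzol extraction, amplified RNA) against wild type tissue (Cy3) in 6 groups of 2 arrays, per the labels. The log2 ratios used are those of a table the authors deposited for 38784 probes; base 2 is inferred from the values (-8.08 to 9.75), with their normalization and genome build not given in the sources used here. Dim spots were kept, as this table gives no signal or background, and the number of arrays limits the precision. The direction of every ratio rests on the dyes in the labels.

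Each array was centred on its median, and probes of a gene (22204 with 1 symbol) were averaged, giving 31234 features. A joint fit of the 12 arrays with a mean for each group was made in limma 3.58.1 (R 4.3.3; residual degrees of freedom up to 6, prior 3.57), two-sided, with Benjamini-Hochberg adjustment over all features tested and calls at 0.05. Testing a feature in a group required values on both its arrays and on both arrays of 2 further groups. The spread behind the p-values is that of these arrays, possibly technical, without the spread of the wild type RNA. Replicate numbers come from the titles, except 2 of 21-day liver, given by order. The members and gene lists were chosen with earlier results of these data known; the text names all 10 members, list genes that passed or were among the 3 of largest mean (cell type markers are given as lists), the 5 most alike genes and Sirt6, and other genes were named after their values were seen. The steps were tested on simulated data.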

Additional observations from a re-analysis of the deposited data

Results flagged for a closer look

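For some members every array of 1 group lay above 0 and every array of another below 0. These pairs were picked out by sign alone and the differences were not tested. With 2 arrays a group, sign patterns of this kind also arise by chance. The share of all features with such a pattern was not counted, so the pairs cannot be read as particular to the members.

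Saa2 was above 0 in 29-day liver (mean 2.27) and below 0 in 29-day spleen and thymus, so that liver minus spleen was 3.02 and liver minus thymus 2.57. Saa4 was likewise higher in 29-day liver than in spleen, by 1.31, while its values in spleen and thymus were all within 0.17 of 0 and differed by -0.23 (spleen minus thymus); centred on the ribosomal and respiratory chain genes, its mean in 29-day spleen was above 0, at 0.29. Apcs was below 0 on all spleen arrays: 21-day liver minus spleen was 1.44, 29-day liver minus spleen 2.45, and 29-day spleen minus thymus -1.30. It was also higher in 29-day liver than in skin, by 1.57, and skin minus thymus was -0.42. Crp was above 0 on both thymus arrays and below 0 on both arrays of skin and of 29-day spleen, with skin minus thymus at -0.86 and spleen minus thymus at -1.41. No group had enough arrays to test a single array as an outlier.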

How the results depend on the processing

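No member was called in any of the 10 comparisons as reported; all calls below were of higher values. The percentages are the share of all features called in the same setting, against 0.104% in 29-day liver, 0.0389% in skin, 0.0359% in 29-day liver against the other tissues, 0.049% over the 29-day tissues and 2.54% in 21-day liver as reported. Quantile normalization called 4 members in 29-day liver (Hp, Mt1, Mt2, Saa2; 1.38% of all features), 2 in skin (Mt1, Mt2; 1.64%), 1 in 29-day liver against the other tissues (Saa2; 0.519%) and 3 over the mean of the 29-day tissues (Hp, Mt1, Mt2; 3.07%). Array quality weights called 2, Mt1 and Mt2, in 29-day liver (0.727% of features), in skin (1.85%) and over the 29-day tissues (0.255%). Scaling to the same spread called 2, Mt1 and Mt2, in 29-day liver (0.925%) and over the 29-day tissues (1.72%). Centring on the ribosomal and respiratory chain median called 1, Mt1, over the 29-day tissues (0.0261%). The cause was not tested. Leaving out each array in turn gave 0 to 1 calls in 29-day liver and over the 29-day tissues, and 0 in the other comparisons. Leaving out the 4 spleen arrays, chosen after seeing the data, called 1 member, Mt2, in 21-day liver (12.4% of all features) and in 29-day liver (0.237%). The other settings, robust eBayes, no centring, arrays of the same age, values on all 12 arrays and each probe on its own, called 0 members. With arrays of the same age, 0 of 21531 features were called in 21-day liver and in 21-day spleen. The list genes that passed at 21 days as reported were thus not called in that setting. With the replicate block 1 member, Lbp, was called in 21-day liver (adjusted p = 0.0486; 0.0486 to 0.535 over 21 alternatives), where 1.38% of all features were, and 0 in the other comparisons. The numbers were not taken to pair the samples, since the differences between replicates 1 and 2 correlated above 0.1 in only 2 of 6 pairs of 29-day tissues (-0.21 to 0.41). Saa2, Saa4 and Lbp in 21-day spleen had a value on 1 array and no SD, so any change there was counted as a move. Counted so, 10 of the members' 60 group means moved by more than the replicate SD without centring. The count was 17 with centring on the ribosomal and respiratory chain genes, 15 with scaling and 16 with quantile normalization, of the same 60 group means. The sign changed for 2, 6, 1 and 1 of them, all between -0.40 and 0.24 as reported: with the ribosomal and respiratory chain centring these were Saa2 in 21-day liver (to -0.08), Saa3 in skin (to -0.05), Saa4 and Hp in 29-day spleen (to 0.29 and 0.02), and Mt1 and Mt2 in 21-day spleen (to 0.41 and 0.27). Without centring they were Saa2 in 21-day liver (to -0.16) and Mt1 in 21-day spleen, and with the other 2 settings Mt1 in 21-day spleen.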
